A study of Mus musculus with 6 samples.

Results

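Nuclear-encoded genes of the mitochondrion were represented by 36 RNA G-quadruplex sites in 24 gene entries, out of 5538 sites in 2643 entries. The sites were taken from all 8 tables by gene symbol: Nduf (complex I), Sdha to Sdhd (complex II), Uqcr (complex III), Cox followed by a digit (complex IV), Atp5 (ATP synthase), Mrpl and Mrps (the large and small subunit of the mitochondrial ribosome), and Timm, Tomm and Samm50 (protein import and outer membrane assembly). No site of a Uqcr or Timm gene was listed. Complex I had 5 sites in 5 genes, complex II 2 in 2, complex IV 9 in 3, ATP synthase 3 in 2, the large ribosomal subunit 5 in 4, the small subunit 9 in 6, and import 3 in 2. Several of the 7 sites of Cox6b2 and the paired sites of Atp5g1, Mrps6, Mrps7 and Mrps34 overlap, so they share reads and are not independent.

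An RNA G-quadruplex is a stack of guanine tetrads that K+ stabilises and Li+ does not, and a folded one can stop reverse transcriptase. Dimethyl sulfate (DMS) methylates guanines at a position that is occupied in a folded quadruplex, so a motif unfolded in the cell is modified and can no longer fold in the K+ reaction. The stop share used below is the number of reads that stop at a site over all reads across it. The proteins encoded here are made in the cytoplasm and imported: complexes I to IV carry electrons and pump protons (complex II carries electrons only), ATP synthase uses the gradient, and the mitochondrial ribosome translates the few membrane subunits that the organelle's own genome encodes.

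The cells were a clonal mouse embryonic stem cell line, labelled TsixTST/+ and derived from 129S1/CastEiJ x 129S1, with the genotype given as WT; all samples come from this 1 line. Day 0 cells were grown on inactivated feeders with leukemia inhibitory factor. Day 3 embryoid bodies were feeder-depleted, grown without that factor and kept in suspension, and day 7 embryoid bodies had been attached to gelatinised plates from day 3 on. Cells of all 3 days were treated with DMS, and polyadenylated RNA was prepared from the chromatin pellet, so the values describe chromatin-bound RNA and not the whole cell. Each day had 2 samples with 1 K+ and 1 Li+ library each. Whether the 2 samples were separate cultures is not stated. Every p-value rests on how much the 2 replicates of a group differ, which may be technical. A second table of each day 7 sample is named in vitro, and its preparation is not described in the labels.

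Per library and cation the listed reads in cells ran from 413278 to 4212056. The members held 1017 to 11395 of them. Reads of 7 stem cell markers, among them Pou5f1 and Sox2, summed to 3095 to 3810 RPM (reads over the site on a common library size) on days 0 and 3 and 1323 to 1554 on day 7, and 2 of 5 primitive streak markers were listed (Fgf8 and T), with a sum of 0 on day 0 and 362 to 540 by day 7. Of the stem cell markers 4 were called lower on day 7 than on day 0. The sum of 4 epithelial markers went from 247 and 371 RPM on day 0 to 1218 and 955 on day 7, and that of 4 of 5 neural markers from 81.1 and 222 to 387 and 301, with 2 called higher in each list. The only listed fibroblast or feeder marker of 5, Col1a1, was at 0 on days 0 and 3 and at 20.2 and 21.3 RPM on day 7. A listed 0 stands for at most 5 reads per library and cation, since no coverage from 1 to 5 occurs in the tables. Bulk libraries cannot tell fewer cells of a type from less RNA per cell. The part of cell type in the differences below was not tested.

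The motifs differ widely in how many and how long their guanine runs are. Shown are the 5 sites with the highest K+ stop share in vitro, the 3 members with enough K+ stops in cells to be tested between days, the site with the lowest share in vitro, and both members of the canonical class (4 runs of 3 or more guanines with short loops). Each is written 5′ to 3′ on the transcript strand with T for U, and runs of 2 or more guanines are in capitals; of motifs longer than 30 bases only the last 30 are printed. Coordinates are 1-based on GRCm38.
Samm50: gtGGGaGGGtgtgtGGcGGGag
Sdha: GGGtgtcgtGGagaGGGGGGG
Cox6b2 (site 5): GGGctGGGcatgaaaGGtaGGGtGGG
Tomm70a (site 1): GGaaatGGagtGGGcGGtGGcGGtGGG
Cox6b2 (site 4): GGGtGGGacctaagtctagaGGGGaGGGG
Ndufa13: GGtgaagcaGGacatgcccccgccaGGGGG
Cox8a: ctgctgaGGagcctgaccGGctcGGcccGG
Ndufb8: agtccgatGGctgcagaGGacaacccGGGG
Ndufaf2: GGGaGGtgaGGGagcacgtGGG
Mrps24: GGGccgcGGGcGGGaGGGctGGGG
Atp5g1 (site 1): GGGccgagcaGGGGctgcaGGGGagtGGG

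The Samm50 motif lies in coding sequence at chr15:84202262-84202283 on the plus strand, and that of Sdha in coding sequence at chr13:74333138-74333158 on the minus strand. Sites 4 and 5 of Cox6b2 overlap on the minus strand of chromosome 7, at chr7:4752224-4752252 and chr7:4752246-4752271, and are annotated as noncoding in the tables. Site 1 of Tomm70a is in coding sequence at chr16:57121919-57121945 on the plus strand. The Ndufa13 motif, 60 bases long at chr8:69901592-69901651 on the minus strand, spans annotations of 5′ UTR, coding sequence and a noncoding transcript, and its entry is shared with Yjefn3, so its reads cannot be given to Ndufa13 alone. The Cox8a motif, also 60 bases at chr19:7217462-7217521 on the minus strand, is annotated as 5′ UTR and coding sequence. Ndufb8 has its motif in coding sequence at chr19:44555343-44555375, Ndufaf2 in coding sequence at chr13:108158499-108158520, Mrps24 in a noncoding transcript at chr11:5707594-5707617 and Atp5g1 in the 5′ UTR at chr11:96075564-96075592, all on the minus strand.

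Sites within coding sequence made up more of the members than of the tables as a whole. Of the 36 sites, 22 (61.1%) had an annotation that includes coding sequence, against 1774 of 5538 (32%) of all sites, and 10 (27.8%) one that includes the 3′ UTR, against 57.1%. Motifs with bulges formed the largest class (18 of 36, 50%, against 41.8% of all sites), and canonical motifs were 2 of 36 (5.56%) against 15.7%. The median motif length was 27 bases against 28. These shares are a description of which sites the tables list, and no test was made of them.

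In vitro, all 36 members stopped reverse transcription more in K+ than in Li+ in both tables, and so did all 5538 listed sites, so the members share this with every other site. The mean K+ stop share over both in vitro tables had a median of 43.9% over members and of 51.4% over all sites, and 12 members lay above the latter. Samm50, the barrel of the outer membrane sorting and assembly machinery, was the highest member, with 433 stops in 471 reads (91.9%) and 686 in 713 (96.2%); its mean of 94.1% is at the 98.9th percentile of all sites. Sdha, the flavoprotein subunit of succinate dehydrogenase, followed with 132 of 161 (82%) and 148 of 172 (86%). The lowest was Ndufaf2, an assembly factor of complex I, with 21.2% and 24.3%. Genes of 1 complex did not have a common level: within complex II, Sdhc, a membrane anchor subunit, stopped 33.6% and 34.1% of reads, and within complex IV the means of the 7 Cox6b2 sites alone ran from 31.5% to 80.1%.

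**Figure D1:**
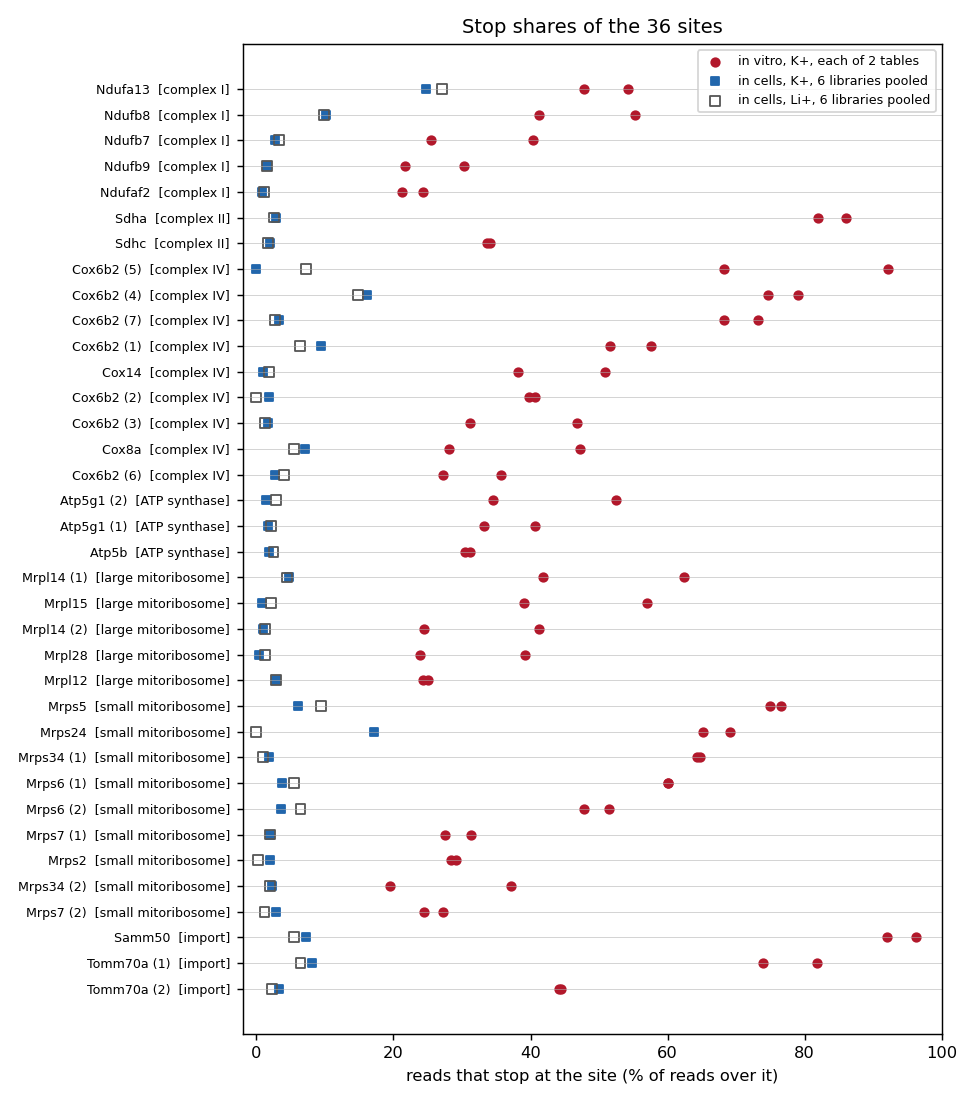
Stop shares (x axis, percent of reads over the site) of the 36 sites, grouped by complex; red circles are the 2 in vitro K+ tables, blue squares the K+ libraries and open squares the Li+ libraries of 6 samples in cells, pooled. Every blue square lies to the left of its red circles, and the blue and open squares of a site mostly lie close together, with Ndufa13 farthest to the right among the squares.

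In cells the same motifs stopped the enzyme rarely. All 36 members had a lower pooled K+ share in cells than in vitro, as did 5435 of the 5439 sites with K+ reads. The pooled K+ share had a median of 2.75% over members; 27 sites were under 5% and 4 over 10%. Samm50 stopped in 11 of 234 K+ reads (4.7%) and 1 of 40 (2.5%) in the day 0 samples. The day 3 samples had 8 of 38 (21.1%) and 5 of 87 (5.75%), and the day 7 samples 19 of 203 (9.36%) and 11 of 155 (7.1%). Its highest value, the 21.1% of day 3 replicate 1, rests on 38 reads and has a 95% exact binomial interval from 9.55% to 37.3%, which covers counting error only. Sdha had 4 K+ stops in 140 reads over all 6 samples (2.86%). Site 5 of Cox6b2, a testis form of a complex IV subunit, had no K+ stop in 92 reads, which allows a share of up to 3.26%, against 68.2% and 92.1% in vitro.

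The in vitro shares were set against those in cells on day 7, the samples under which the in vitro tables are filed, on the log2 odds of stopping with limma. Among 3497 sites tested 3478 were called (99.5%), and 28 of the 29 members tested were called, all with more stops in vitro, so the members' count is at the background. All 5538 listed sites stopped more in K+ than in Li+ in these same in vitro tables. Stopping in K+ in vitro was thus common to the list beforehand, and the p-values of single sites are a description. The median difference was 4.86 on the log2 odds scale over members and 4.3 over all sites tested. Samm50 had a difference of 7.53 ± 0.53 (SE; limma adjusted p = 8.97e-07), Sdha 7.04 ± 0.85 (limma adjusted p = 1.28e-05), and site 1 of Mrps34, in the small ribosomal subunit, 6.3 ± 0.95 (limma adjusted p = 6.16e-05). The smallest member difference was that of Ndufa13, an accessory subunit of complex I, at 1.19 ± 0.25 (limma adjusted p = 0.00064), and the next smallest that of Ndufb8, another accessory subunit, at 2.77 ± 0.42. The 1 member that missed the threshold, site 2 of Mrps34, had a difference of 5.14 ± 2.4 (limma adjusted p = 0.0531).

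A few members stopped often in cells with either cation. Ndufa13 gave 446 of the members' 1049 K+ stops in cells (42.5%) from 9.24% of their K+ reads. In day 0 cells it stopped 92 of 511 K+ reads (18%) and 22 of 157 (14%), in day 3 cells 22 of 81 (27.2%) and 24 of 131 (18.3%), and in day 7 cells 208 of 670 (31%) and 78 of 248 (31.5%). Both day 7 values lie above both day 0 values. The Li+ shares were 32.1% and 17.1%, then 28.3% and 15.3%, then 28.2% and 25.9%, and here the days overlap. In vitro the site stopped 47.8% and 54.2% of K+ reads and also 32% and 41.4% of Li+ reads.

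The sites that stopped most in cells were mostly those that also stopped without K+ in vitro. Of the 8 members whose mean Li+ share in vitro was over 15%, all had a pooled K+ share in cells over 5%; of the other 28, only site 1 of Tomm70a, an import receptor, did (8.11% in cells, 8.33% in Li+ in vitro). Just under the limit lies site 5 of Cox6b2, with 14.5% in Li+ in vitro and no K+ stop in cells. The 8 were Ndufa13, Ndufb8, Samm50, Cox8a, Mrps5, Mrps24 and sites 1 and 4 of Cox6b2. The Li+ shares that place some of them there rest on few reads. In vitro Mrps24 stopped in 1 of 7 and 2 of 8 Li+ reads, and site 4 of Cox6b2 in 4 of 11 in replicate 1. For Cox8a the 2 in vitro tables differ, with 27.3% and 6.67% in Li+. Ndufa13, by contrast, had 643 and 273 Li+ reads. Both limits were chosen after the values were seen. Pearson's r of the Li+ share in vitro with the K+ share in cells was 0.86 over 36 sites and 0.81 without Ndufa13. That of the K+ share in vitro with the K+ share in cells was 0.38 and, without Ndufa13, 0.48. In ranks the relations were of one size: Spearman's rho was 0.46 for each over 36 sites. Without Ndufa13 rho was 0.41 with the Li+ share and 0.45 with the K+ share. Over 3324 sites of all genes with 100 or more K+ reads in cells, r was 0.64 with the Li+ share and 0.34 with the K+ share. Their rho was 0.52 with the Li+ share and 0.39 with the K+ share. For the 31 members with as many reads, r was 0.92 and 0.4 and rho 0.49 and 0.48, in the same order. Sites are not independent replicates, overlapping ones share reads, and low read numbers widen many of the points.

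**Figure D2:**
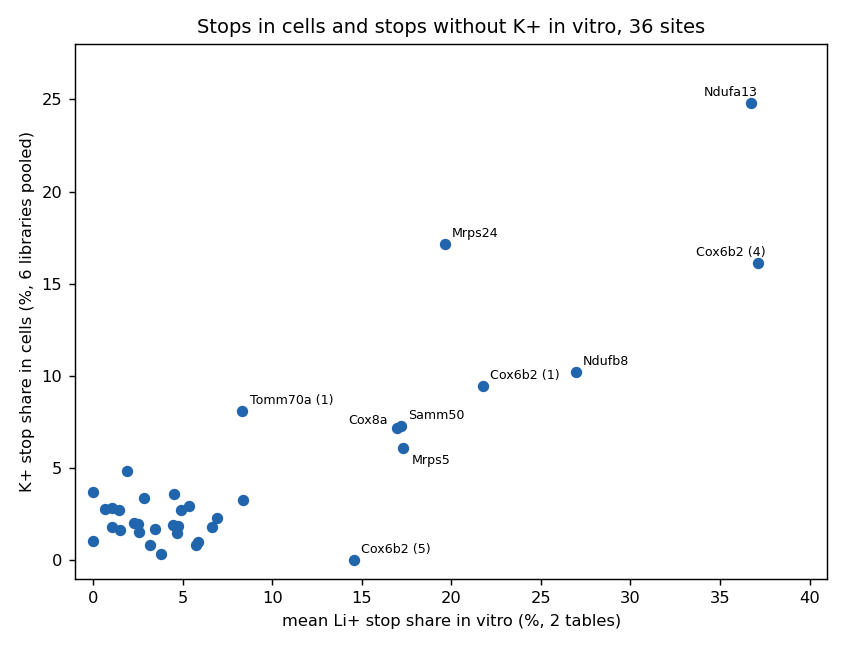
Pooled K+ stop share in cells (y axis, percent) against the mean Li+ stop share in vitro (x axis, percent) for the 36 sites, each point 1 site. The points with over 15% on the x axis all lie above 5% on the y axis, and Mrps24, with 35 K+ reads in cells, is among the least precise.

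The comparison of K+ with Li+ within a day asks which motifs were protected from DMS in the cell. Pooled over the 6 samples the members stopped in 5.39% of K+ reads and 5.51% of Li+ reads, and 19 of 36 had the higher share in K+. Ndufa13 gave 446 of the 1049 K+ stops and 624 of the 1376 Li+ stops, so both pooled shares lean on it. Without Ndufa13 the members' share per library ran from 2.54% to 5.56% in K+ and from 2.88% to 4.14% in Li+. Among members with 20 or more reads of each cation in a library, the K+ share was the higher at 16 of 25 and 9 of 16 in day 0 cells, 5 of 14 and 7 of 13 in day 3 cells, and 14 of 34 and 7 of 25 in day 7 cells. Over all sites the libraries themselves were uneven, with K+ the higher at 41.4% and 29.1%, 73.2% and 58.8%, and 66% and 41.8% of sites. The fit took the K+ and the Li+ libraries of a day as separate groups. It did not pair the K+ and Li+ libraries of a sample, and a fit with that pairing was not run. In day 0 cells limma called 0 of 847 sites (0.0%) and 0 of the 12 members tested. At an unadjusted p under 0.05 there were 25 sites, 1 of them a member. No site was called for day 3 either (0.0%; 91 sites and 1 member at an unadjusted p under 0.05), nor for day 7 (0.0%; 35 sites and no member). The median difference of K+ from Li+ log2 odds over the 12 members was 0.29, -0.06 and 0.09 for the days in order, beside -0.31, 0.7 and 0.21 over all 847 sites.

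Ndufb8 had the smallest unadjusted p among members on day 0. There its K+ shares were 10.3% and 8.62% and its Li+ shares 5.06% and 3.39%, a difference of 1.13 log2 odds with a 95% interval from 0.16 to 2.1 (limma adjusted p = 0.997). On day 7 both K+ values, 14.1% and 9.6%, were below both Li+ values, 15.4% and 15%, with a difference of -0.44 and an interval from -1.09 to 0.21 (limma adjusted p = 0.996). For Samm50 on day 3 the K+ shares of 21.1% and 5.75% stood against Li+ shares of 3.32% and 0 of 45 reads (95% exact upper bound 7.87%), a difference of 2.08 with an interval from 0.2 to 3.95 (limma adjusted p = 0.389). For Cox8a the intervals of that difference were -0.39 to 1.33 for day 0, -1.22 to 0.71 for day 3 and -0.79 to 1.41 for day 7, so a difference of the odds by more than 3-fold in either direction lies outside all 3 of them.

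**Figure D3:**
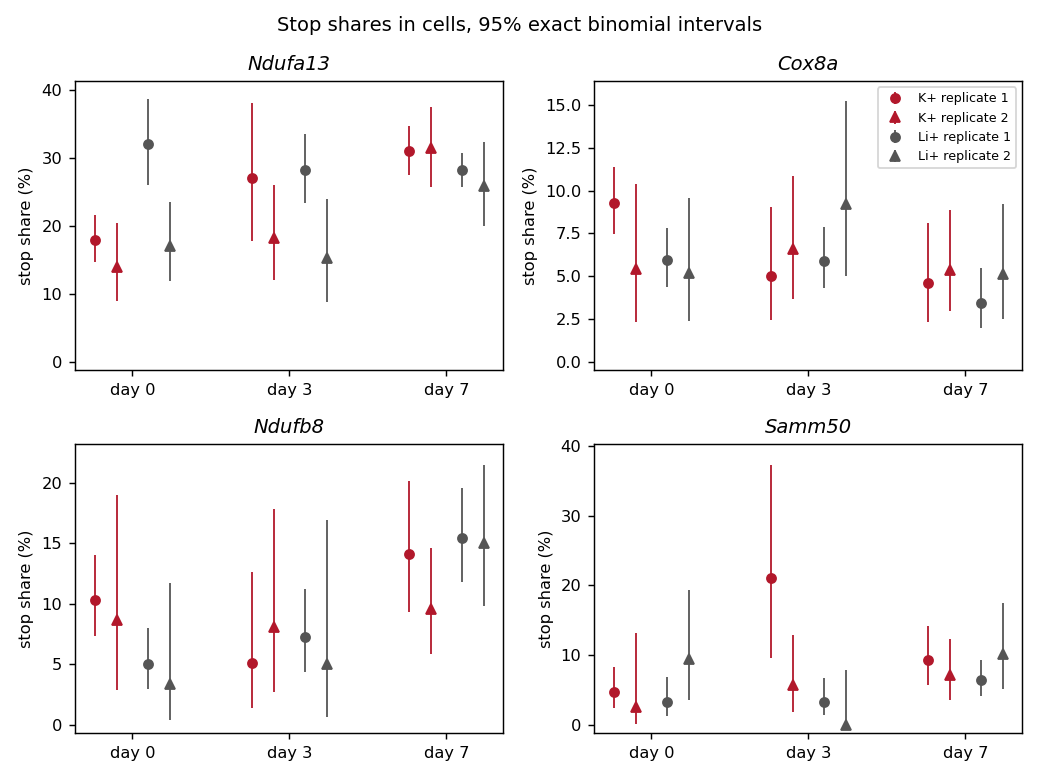
Stop shares in cells (y axis, percent) of 4 members on days 0, 3 and 7, in K+ (red) and Li+ (grey), with circles for replicate 1, triangles for replicate 2 and bars for 95% exact binomial intervals. For Ndufa13 both K+ points of day 7 lie above those of day 0, and for Ndufb8 the K+ points lie above the Li+ points on day 0 and below them on day 7.

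The K+ stop share itself was compared between day 7 and day 0. It does not by itself measure folding, since reads also stopped in Li+, and at Ndufa13 they did so often. With limma, 0 of 954 sites were called (0.0%) and 0 of the 13 members, and 73 sites, 1 of them a member, had an unadjusted p under 0.05. Ndufa13 had the largest member increase, 1.22 ± 0.3 log2 odds with a 95% interval from 0.55 to 1.88 (limma adjusted p = 0.599). The other 12 members had intervals that include 0, among them Sdhc at -1.32 with an interval from -2.98 to 0.34. Samm50 was 0.97 higher on day 7 with an interval from -0.68 to 2.61, and Cox8a differed by -0.61 with an interval from -1.7 to 0.47. The median difference was 0.02 over members and 0.58 over all sites tested.

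K+ stop counts, which move with both the share and the amount of RNA, were high enough to be tested at 3 members of 327 sites, so the other 33 are outside this test. Between day 7 and day 0, 53 sites were called (16.2%), 33 of them higher on day 7, and 1 of the 3 members. With scaling by total counts, 79 of 84 called sites were higher, and leaving out 1 replicate of these days gave 11 to 29 called sites. Cox8a, a small subunit of cytochrome c oxidase, had 83 and 8 K+ stops in the day 0 libraries, 10 and 14 in those of day 3, and 11 and 14 in those of day 7. Scaled to the libraries these are 468 and 154, then 120 and 147, then 21.3 and 76.2 CPM (stop counts on a common library size). Both day 7 values lie below all the others. The log2 change from day 0 to day 7 was -3.18 ± 0.68 (limma adjusted p = 0.0123), and -1.92 with scaling by total counts (limma adjusted p = 0.0362). Without day 7 replicate 1 the Cox8a change was -1.89 (limma adjusted p = 0.0598), without day 0 replicate 1 -2.1 (limma adjusted p = 0.193), and without day 0 replicate 2 -3.77 (limma adjusted p = 0.066).

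The other members tested were not called. Ndufb8 went from 203 and 95.9 CPM (day 0) to 48 and 52.7 (day 3) and then 48.4 and 103 (day 7), a change from day 0 to day 7 of -1.31 ± 0.54 (limma adjusted p = 0.134), and its days 0 and 7 overlap. Ndufa13 had 518 and 422, then 264 and 253, then 402 and 424, a change from day 0 to day 7 of -0.2 ± 0.39 (limma adjusted p = 0.794). For day 3 against day 0, 2 of 327 sites were called (0.612%) and no member; at an unadjusted p under 0.05 there were 45 sites, and again no member. For day 7 against day 3, 20 sites were called (6.12%) and no member; at an unadjusted p under 0.05 there were 58 sites, 1 of them Cox8a at -2.03 ± 0.73 (limma adjusted p = 0.145).

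Reads of both cations over the most covered site of each gene entry served as a measure of its chromatin-bound RNA. All 24 member entries passed the filter on low counts, among 2389 entries tested. Between day 7 and day 0, 439 entries were called (18.4%), 364 of them higher on day 7, and 2 of the 24 members, Cox8a lower and the Mrps6 entry higher. The Mrps6 entry passed the filter only through its day 7 reads, so its call is a description. The median log2 change was 0.57 over all entries and -0.37 over members, 22 of which lay below the former. With scaling by total counts alone these medians were 1.01 and 0.11 and 426 of 443 called entries were higher, so the sign of the members' median depends on the scaling, while it lay below the median of all genes by 0.95 with the one and 0.9 with the other. Leaving out day 0 replicate 2 reduced that distance to 0.6, with medians of 0.16 over all entries and -0.44 over members. Leaving out day 0 replicate 1 gave medians of 0.78 and -0.25. Leaving out day 7 replicate 1 or 2 reduced the distance to 0.79 and 0.77. The median of all entries thus moved with the day 0 library used. No background of entries with like read numbers was set beside the members, and the part of read depth in the distance was not tested. A measure without fitted scaling factors is the members' share of the reads outside ribosomal and mitochondrially encoded RNA. It was 1.28% and 0.961% for day 0, 1.1% and 1.04% for day 3, and 0.732% and 0.726% for day 7. Without Cox8a, Ndufa13 and Sdhc, the 3 most covered members, it was 0.855% and 0.658%, 0.746% and 0.745%, and 0.541% and 0.539%. In either form both day 7 samples lie below all 4 others. The share is relative to all other listed sites and also falls where their reads rise. All 5538 listed sites had reads in both in vitro tables, which are filed under day 7. The part of this in the lower share was not tested.

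**Figure D4:**
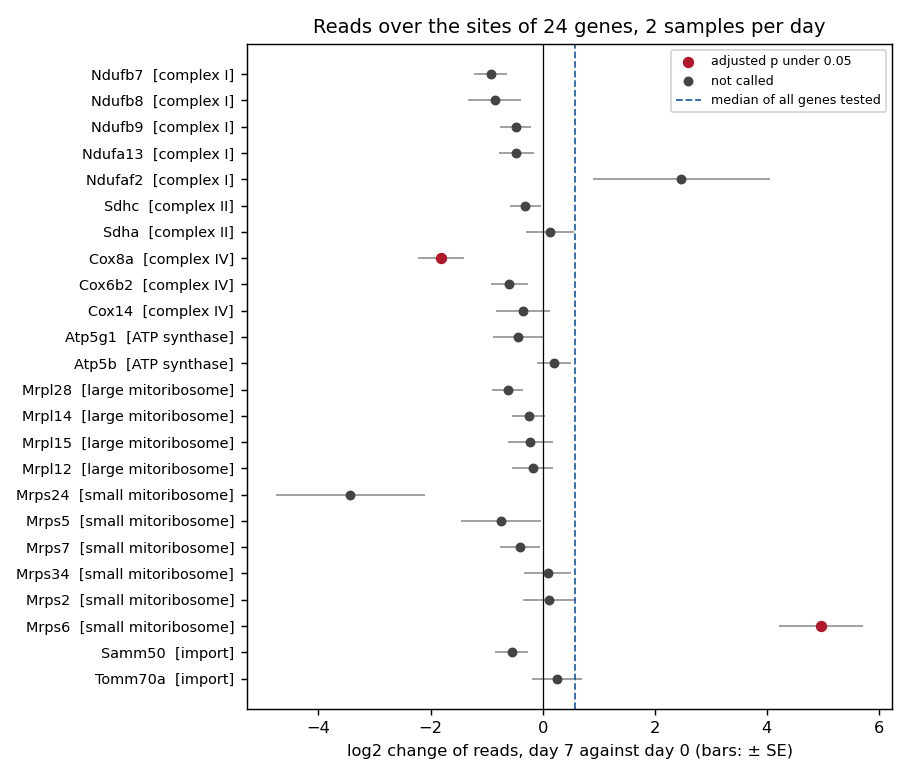
Log2 change of reads over the site from day 0 to day 7 (x axis) for 24 gene entries, ordered by complex, with bars of ± SE from the fit; the dashed line is the median of all 2389 entries. Of the members 22 lie left of the dashed line, and the entries called, Cox8a at -1.82 and the entry of Mrps6 at 4.97, are in red. The entry of Mrps6 was listed at 0 on day 0 and passed the filter only through day 7, so its call is a description. Its day 7 mean was 1.21-fold the mean of the day 0 floors of 10 reads per sample.

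Among the respiratory chain genes, Cox8a had 1169 and 639 RPM in day 0 cells, 1010 and 699 in day 3 cells, and 187 and 334 in day 7 cells. Its levels on days 0 and 3 overlap and both day 7 samples are lower. The change was -1.82 ± 0.41 from day 0 (limma adjusted p = 0.023) and -1.77 ± 0.42 from day 3 (limma adjusted p = 0.0294), and -0.05 ± 0.41 between days 0 and 3. The call against day 0 was lost without either day 7 sample (limma adjusted p = 0.23 without replicate 1 and 0.0622 without replicate 2), where 5 and 11 entries of any kind were called in place of 439. It was also lost with scaling by total counts (limma adjusted p = 0.0759) and with only the days compared (limma adjusted p = 0.08). The call against day 3 was lost without any 1 of the 4 samples of these days (limma adjusted p from 0.0777 to 0.406), with scaling by total counts (limma adjusted p = 0.0768) and with a replicate block (limma adjusted p = 0.0551).

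The complex I subunit Ndufb7 had 404 and 599 RPM, then 354 and 408, then 260 and 252 (days in order). Its day 7 values lie below the rest, and the change of -0.93 ± 0.29 from day 0 did not pass the threshold (limma adjusted p = 0.0617; 0.0211 without day 0 replicate 1). Ndufb8 (-0.86), Ndufb9 (-0.48) and Ndufa13 (-0.47), further subunits of complex I, were not called. The level of Ndufaf2 was 58 and 0 on day 0, and its fitted change of 2.48 has an interval from -1.18 to 6.13. Sdhc had 638 and 480, 537 and 493, and 496 and 406 RPM, with a change of -0.31 ± 0.28, and Sdha one of 0.13 ± 0.43. Cox6b2 at -0.59 and Cox14, a complex IV assembly factor, at -0.35 were not called. Of ATP synthase, Atp5b, the catalytic beta subunit, had a log2 difference of 0.2 ± 0.3 and Atp5g1, a gene of the membrane ring subunit, one of -0.45 ± 0.45; neither was called.

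Among the mitochondrial ribosomal genes, those called for reads between days were the ones with the fewest reads. The entry shared by Mrps6, Slc5a3 and Gm49711 was listed at 0 in all 4 samples of days 0 and 3 and at 72 and 18 reads on day 7, or 19.1 and 13.2 RPM. It passed the filter on low counts only through the day 7 libraries, so it had to differ, and its calls against days 0 and 3 are a description. A listed 0 allows up to 10 reads per sample, or 19.8 RPM in replicate 2 of either earlier day, which is above the 13.2 RPM of day 7 replicate 2, so the 2 groups may overlap. Its motif lies in a 3′ UTR or noncoding annotation at chr16:92086005-92086028, and the reads cannot be given to Mrps6 rather than to Slc5a3, a myo-inositol transporter gene. Mrps24 had 24 and 0 reads in day 0 cells, 16 and 17 in day 3 cells, and was listed at 0 in both day 7 samples. The mean of day 3, 25.5 RPM, was 5.1-fold the mean of the day 7 floors of 10 reads per sample, 5 RPM. By sample, day 3 had 17.4 and 33.7 RPM, and the day 7 floors were 2.66 and 7.35 RPM. Counting error is not covered by this fold. Mrps24 was called for day 7 against day 3 with its zeros taken as 0 (limma adjusted p = 0.0181), but it too passed the filter only through the days on which it was listed. The change from day 0 to day 7 was not called (limma adjusted p = 0.0976). The call against day 3 was lost without day 3 replicate 2 (limma adjusted p = 0.315) and without either day 7 sample (0.581 and 0.214).

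The remaining 8 ribosomal genes were not called for reads in any comparison of days. From day 0 to day 7 they ranged from -0.74 for Mrps5 to 0.12 for Mrps2. Mrpl12, of the stalk of the large subunit, was the most covered, with 260 and 516, 288 and 321, and 354 and 279 RPM. Mrpl28 had 212 and 198, 248 and 212, and 147 and 121, and its day 7 samples lie below the others (-0.62 ± 0.28, limma adjusted p = 0.132). Neither of the import and outer membrane genes was called: Samm50 went from 293 and 206 to 271 and 261 and then to 154 and 193, a change from day 0 to day 7 of -0.55 ± 0.3 (limma adjusted p = 0.196), and Tomm70a had a log2 difference of 0.25 ± 0.45.

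**Figure D5:**
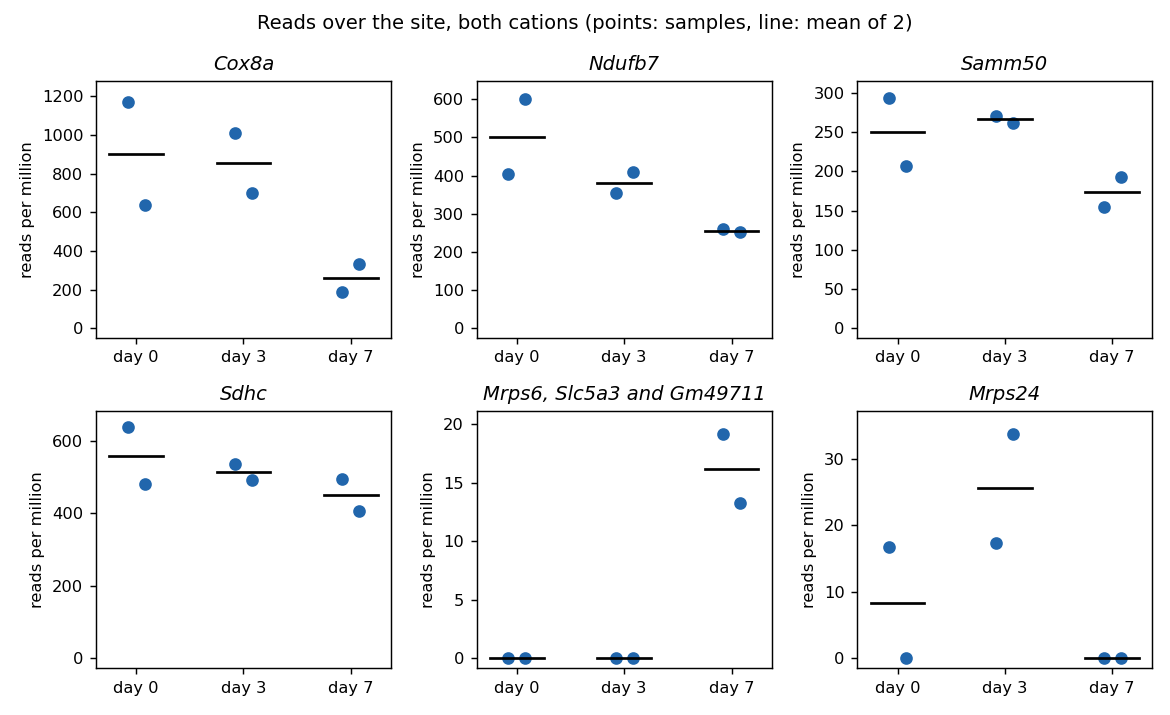
Reads of both cations over the site (y axis, RPM, linear) for 6 members on days 0, 3 and 7; points are samples and lines the mean of 2. Cox8a, Ndufb7 and Samm50 have both day 7 samples below all others, Sdhc overlaps between days, and Mrps6 (its entry shared with Slc5a3 and Gm49711) and Mrps24 are listed at 0 in several samples.

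For day 3 against day 0, 2 of 2389 entries were called (0.0837%) and no member; at an unadjusted p under 0.05 there were 205 entries, and again no member. For day 7 against day 3, 302 were called (12.6%) and 3 of 24 members: Cox8a and Mrps24 lower and the Mrps6 entry higher. Mrps24 and the Mrps6 entry passed the filter only through the days on which they were listed, so their calls are a description. The median change was -0.32 over members and 0.33 over all entries. Without day 3 replicate 2 no entry was called, and without day 7 replicate 1 or 2 there were 5 and 17. The 3 comparisons share samples and are not independent of each other. Of 70 other genes of mitochondrial metabolism, upkeep and import, 15 had a site, in 16 entries (Phb2, a prohibitin, has 2), and all 16 were tested. From day 0 to day 7, 2 of the 16 (12.5%) were called, both higher on day 7, beside 18.4% of all entries. Cs, citrate synthase, had 17 and 0 reads in day 0 cells, 6 and 14 in day 3 cells and 93 and 33 in day 7 cells. Dld, dihydrolipoamide dehydrogenase, had 6 and 0, 11 and 0, and 94 and 35 reads. The reads of both genes are unscaled. Dld passed the filter on low counts only with the day 7 libraries, so its call is a description. The listed 0 of both genes in day 0 replicate 2 allows up to 10 reads, or 19.8 RPM. The median log2 change over the 16 entries was -0.18; the other comparisons of days gave a median of 0.01 (day 3 against day 0) and -0.07 (day 7 against day 3) and no call with limma. The mitochondrially encoded mt-Rnr1, the small ribosomal RNA of the organelle, had 6030 and 3078, 4075 and 2589, and 43096 and 8127 reads in the 3 days. The other mitochondrially encoded site, in mt-Nd6, had 304 and 528, 311 and 236, and 1968 and 535 reads. These reads are unscaled and the libraries differ in depth, so they do not by themselves give a change between days.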

How the data were processed

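The tables deposited by the authors give, per the file headers, whole-number read counts at each site: coverage and stops, in K+ and in Li+, without normalisation. The submitters' processing notes name GRCm38.p6 (mm10) and the tools cutadapt, STAR and SAMtools. Their settings and their treatment of strand and of multiple matches were not given in the sources used here. Deposited motif starts proved to be 0-based (127 of 127 motifs found in RefSeq promoters of GRCm38.p6) and were raised by 1. All 24 symbols matched RefSeq. The 2 sites without a value in day 0 replicate 1, neither a member, were taken as 0.

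Counts were tested with limma-voom (limma 3.58.1, R 4.3.3) over all 6 samples without covariates, keeping features with 10 counts at the median library size in 2 libraries and 15 in all, scaled by trimmed mean of M values. The quasi-likelihood count test of the original design was replaced because records run over 2 lines and could not be checked as counts; the values themselves would have allowed it. The scaling was first computed over all sites; after its results had been seen it was changed to the features kept by the filter, the usual order, and the first version is kept as an alternative. Stop shares were tested as log2 odds in limma (pseudocount 0.5, beta-binomial weights, 20 or more reads in every library used). A feature was called where its Benjamini-Hochberg adjusted p over all features was under 0.05. Scripts were tested on simulated data. Shares of single libraries carry exact Clopper-Pearson intervals, and a count of 0 allows 3; both cover counting error only, since the reads carry no molecular identifiers stated in the sources used here. Folds against groups at 0 use a floor of 10 reads per sample, 5 per cation.

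The members, the lists and the limits were chosen with earlier results of these data known. Genes named are those called in any test, the 2 most covered per complex, the 5 sites with the highest share in vitro and the 5 with the most K+ stops in cells; the comparison in vitro called nearly every gene, so all 24 qualified. Alternatives were scaling, filter, samples in the fit, replicate block, leaving out each replicate, read minimum, pseudocount, weights, sums over all sites of an entry, leaving out ribosomal and mitochondrial RNA sites, and exchanging the cations of day 0 replicate 2.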

Additional observations from a re-analysis of the deposited data

Results flagged for a closer look

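At 7 of the 12 members with enough reads, the K+ share lay on one side of the Li+ share in both samples of 1 day and on the other side in both samples of another. Over all 847 sites the share with such a change between any days was not computed, so the 7 have no background beside them. The difference between the days was then tested as an interaction of cation and day over 847 sites, and none was called for any pair of days. This fit too did not pair the K+ and Li+ libraries of a sample. All adjusted p below are from limma. Such a change of side occurred at 15.3% of all 847 sites between days 0 and 7 (3 of 12 members), at 21.5% between days 0 and 3 (4 of 12) and at 8.97% between days 3 and 7 (3 of 12).

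Between days 0 and 7, Ndufb8 had K+ shares 5.26 and 5.23 percentage points above Li+ on day 0 and 1.28 and 5.4 below on day 7, an interaction of -1.57 ± 0.55 log2 odds (adjusted p = 0.578). Ndufa13 went the other way, from 14.1 and 3.13 points below to 2.8 and 5.6 above, an interaction of 0.98 ± 0.52 (adjusted p = 0.818). For Mrpl12 the interaction was -1.58 ± 1.15 (adjusted p = 0.904).

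Between days 0 and 3 the interaction was -2.59 ± 2.06 for Sdhc (adjusted p = 0.636), 0.59 ± 1.68 for site 2 of Atp5g1 (adjusted p = 0.907), -0.73 ± 0.6 for Cox8a (adjusted p = 0.636) and -2.34 ± 1.23 for Ndufb7 (adjusted p = 0.476). Between days 3 and 7 it was -1.2 ± 1.42 for site 2 of Atp5g1, -1.51 ± 0.97 for Mrpl12 and 0.57 ± 0.68 for Cox8a (adjusted p = 0.985 for each).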

How the results depend on the processing

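Without the filter on low counts, 35 member sites were tested for K+ stop counts, and 2 were called for day 7 against day 0 (154 of 5037 sites in all), 1 for day 3 against day 0 (14 of 5037) and 1 for day 7 against day 3 (134 of 5037). Reads over the site gave 1 member call for day 7 against day 0 with scaling by total counts and 1 with only the days compared (200 entries in all, against 439). With 50 or more reads per library, 15 members could be tested in vitro against day 7, and 15 were called, as were 1905 of 1916 sites in all. Leaving out 1 replicate in turn gave 0 to 1 member calls for K+ stop counts on day 7 against day 0, 0 to 5 for reads on day 7 against day 0 (5 to 919 over all entries), 0 to 2 for reads on day 7 against day 3 (0 to 419) and 26 to 31 in vitro against day 7. The Cox8a change of reads from day 0 stayed between -2.27 and -1.35 over 12 alternatives and was called in 8. The first scaling (over all sites, chosen before the one used) gave the same member counts of 1, 0 and 0 for stops and 2, 0 and 3 for reads, with 57 sites and 447 entries called on day 7 against day 0. For K+ stop share and K+ against Li+, no member was called under any alternative run.

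Replicate numbers gave no clear pairing of the samples. Deviations of the numbered samples correlated between days with r from -0.173 to 0.087 for stops. For reads r ran from -0.059 to 0.251, the highest between days 0 and 3. Between the in vitro and day 7 shares r was 0.03. With the replicate block, member calls were 1, 0 and 0 for K+ stop counts, 2, 0 and 2 for reads (day 7 against day 0, day 3 against day 0, day 7 against day 3), 0 for the shares between days and cations, and 29 in vitro against day 7; the Cox8a reads on day 7 against day 3 then had a limma adjusted p of 0.0551. The block moved the entries called for reads on day 7 against day 0 from 439 to 290. Depth limits most sites in cells: 12 of 36 had 20 or more reads of both cations in every library.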
